A study of Mus musculus with 8 samples.

Results

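The surfactant and lamellar body genes of the type 2 alveolar epithelial cell (AT2) were followed in RNA-Seq of the CD45-depleted fraction of distal lung, which the study treats as epithelium. These genes are 9 of the 22756 counted, chosen by symbol. Sftpa1, Sftpb, Sftpc and Sftpd encode the secreted surfactant proteins. Abca3, Lamp3, Napsa and Lpcat1 belong to the lamellar body or to the processing of its cargo. Slc34a2, of the AT2 apical membrane, was grouped with them under the name lamellar body genes. The mice were adults of more than 90 percent C57BL/6 background and of the α7G genotype, in which the nicotinic receptor gene Chrna7 carries an IRES-tauGFP reporter, or of the α7E260A:G genotype, which carries the same reporter and the E260A point mutation that limits calcium-coupled signaling of the receptor. Mice of each genotype breathed side-stream cigarette smoke (CS) for 4 months, 5 days in each week, or room air (control), and each of the 4 groups had 1 male and 1 female library. Lungs were lavaged, CD45+ cells were depleted from the dissociated distal tissue, and how many mice made up a library is not given in the sources used here. The mutation is present in the germ line of all cells, so a difference between the genotypes is not confined to AT2, and counts on coding sequence cannot show the substitution itself.

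AT2 cells make pulmonary surfactant, the lipid and protein film that lowers surface tension in the alveolus. The lipid and the hydrophobic proteins SP-B and SP-C are packed into lamellar bodies, lysosome-related organelles that fuse with the apical membrane. The collectins SP-A and SP-D, encoded by Sftpa1 and Sftpd, bind microbes and apoptotic cells in the airspace. Surfactant is taken up again by AT2 or cleared by alveolar macrophages.

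All 9 transcripts were lower in α7E260A:G than in α7G by group mean, with ratios of 0.331 to 0.783. Together they held 2.26, 2.60, 2.02 and 3.08% of all counts in the α7G libraries (control male, control female, CS male, CS female) and 0.670, 1.21, 0.481 and 1.49% in the corresponding α7E260A:G libraries. The mean share was 2.49% ± 0.46 (SD, n = 4) in α7G and 0.963% ± 0.468 (SD, n = 4) in α7E260A:G, and the libraries of the genotypes did not overlap. In bulk RNA a smaller number of AT2 cells, less RNA per AT2 cell and more RNA from other cells cannot be told apart. Over both genotypes the CS and control libraries overlapped for all 9 genes. Within α7G, 4 of the 5 lamellar body genes had lower RPM after CS in both pairs. The share of all transcripts lower in both pairs is not given here. The α7G control and CS libraries also differed in how counts depended on coding length. With that dependence removed, the secreted genes Sftpa1 and Sftpb were lower after CS in both α7G pairs too. When scaled by library size, 60.9% of all transcripts had a log2 fold-change below 0 for CS in α7G. None of these CS differences of the 9 genes was called in the fit of all 8 libraries. A fit of the α7G libraries alone, without a correction for coding length, called Abca3 among 1150 of 7190 transcripts.

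Per length of coding sequence, the order of the 9 genes in α7G controls ran from Sftpc at 23956 RPKM (RPM divided by coding length in kilobases, mean of the male and female libraries) through Sftpa1 at 5163, Sftpb at 2494 and Sftpd at 1006 to Napsa at 554, Slc34a2 at 506, Lamp3 at 257, Lpcat1 at 116 and Abca3 at 63.5 RPKM. The male and female libraries of neighbours in this order overlapped only for Napsa and Slc34a2. In α7E260A:G controls the order was the same, with Sftpc at 9274 and Abca3 at 41.6 RPKM, and the libraries overlapped between Sftpd and Napsa and between Lpcat1 and Abca3. By RPM, the count scaled to the library total, Sftpc was number 5 of all genes and Lpcat1 number 1754.

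The positions are those of the mm9 build. Sftpa1 (ENSMUSG00000021789.8, chr14:41945071-41949741, plus strand) and Sftpd (ENSMUSG00000021795.8, chr14:41985501-41998487, minus strand) are 35759 bases apart with 1 counted gene between them, and Sftpc (ENSMUSG00000022097.3, chr14:70920748-70923888, minus strand) lies further along the same chromosome. Sftpb (ENSMUSG00000056370.8) is at chr6:72254619-72262926, Abca3 (ENSMUSG00000024130.9) at chr17:24488895-24547146, Lamp3 (ENSMUSG00000041247.6) at chr16:19653474-19706458 and Slc34a2 (ENSMUSG00000029188.8) at chr5:53429321-53462903. Napsa (ENSMUSG00000002204.8) is at chr7:51827802-51842232, on the chromosome that carries Chrna7, and Lpcat1 (ENSMUSG00000021608.8) is at chr13:73604645-73653870. Counts are on coding exons only, whose summed length runs from 579 bases in Sftpc to 5112 in Abca3.

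The 250 bases before the transcription start were read for core motifs of 3 factor families known in AT2. This was done for the 6 members found in the RefSeq promoter set (GRCm38.p6), in which Sftpc, Sftpd and Napsa had no entry. The letters were CTCAAG for NKX2-1, TGTTTAC for FOXA and TTGCNNAA for C/EBP, searched on both strands, and they were chosen with the sequences in view. The 4 promoters that hold such letters are given 5′ to 3′ on the gene's strand, with the motif in capitals, in the order Sftpb (chr6:72304360-72304609, plus strand), Sftpa1 (chr14:41131538-41131787, plus strand), Slc34a2 (chr5:53049103-53049352, plus strand) and Lamp3 (chr16:19706366-19706615, minus strand).
Sftpb: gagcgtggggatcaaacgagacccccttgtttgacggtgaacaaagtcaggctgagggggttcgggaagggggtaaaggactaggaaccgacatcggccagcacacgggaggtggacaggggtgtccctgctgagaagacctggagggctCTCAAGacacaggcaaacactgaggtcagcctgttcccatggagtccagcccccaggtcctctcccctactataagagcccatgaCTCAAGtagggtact
Sftpa1: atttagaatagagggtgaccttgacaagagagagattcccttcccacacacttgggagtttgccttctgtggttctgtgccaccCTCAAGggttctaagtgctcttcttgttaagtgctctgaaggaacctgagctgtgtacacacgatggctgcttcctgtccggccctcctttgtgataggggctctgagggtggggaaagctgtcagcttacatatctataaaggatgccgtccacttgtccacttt
Slc34a2: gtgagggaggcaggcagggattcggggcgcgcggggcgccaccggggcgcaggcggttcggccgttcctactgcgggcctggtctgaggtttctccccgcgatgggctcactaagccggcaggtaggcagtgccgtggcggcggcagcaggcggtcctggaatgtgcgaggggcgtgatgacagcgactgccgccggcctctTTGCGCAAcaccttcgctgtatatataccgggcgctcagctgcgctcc
Lamp3: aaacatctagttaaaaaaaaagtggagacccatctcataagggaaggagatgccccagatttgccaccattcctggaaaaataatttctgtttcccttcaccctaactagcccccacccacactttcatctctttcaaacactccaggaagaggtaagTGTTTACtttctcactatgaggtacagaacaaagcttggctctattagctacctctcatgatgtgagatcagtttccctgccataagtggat
Sftpb held the NKX2-1 letters at 2 places and Sftpa1 at 1 place, and 13.3% of all 32851 promoters of that length held them. Slc34a2 held the C/EBP letters, which 9.56% of all promoters did, and Lamp3 the FOXA letters, which 3.17% did. The windows of Abca3 and Lpcat1 held none of them. The share of all promoters that hold any of the 3 motifs is not given here. A match is a description of the sequence and was not tested as a binding site.

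The secreted surfactant proteins were compared between the genotypes first. Sftpc, which encodes the hydrophobic SP-C made only by AT2, had 12453 (male) and 15288 RPM (female) in α7G controls and 12914 and 20144 RPM after CS. In α7E260A:G it had 3104 and 7636 RPM in controls and 2323 and 9170.4 RPM after CS. Every α7E260A:G library lay below every α7G library, and within α7E260A:G the male libraries were the lower ones. The means were 15200.0 ± 3522 and 5558 ± 3359 RPM (SD, n = 4 each), a ratio of 0.366.

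Sftpa1, which encodes the major collectin SP-A, had 3314 and 4369 RPM in α7G controls and 2551 and 4478 RPM after CS. It had 1103 and 1876 RPM in α7E260A:G controls and 709 and 2267 RPM after CS. The genotypes did not overlap, and the closest libraries were the α7G CS male and the α7E260A:G CS female. The ratio of the means was 0.405. Sftpd, the collectin beside it on chromosome 14, had 1016 and 1369 RPM in α7G controls and 816 and 1469 RPM after CS, against 306 and 578 RPM in α7E260A:G controls and 278 and 687 RPM after CS. It was separated between the genotypes in the same way, with a ratio of 0.396.

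Sftpb encodes SP-B, the hydrophobic protein without which lamellar bodies do not form. It had 3055 and 2572 RPM in α7G controls and 2493 and 2684 RPM after CS. In α7E260A:G it had 1025 and 1053 RPM in controls and 702 and 1624 RPM after CS. The α7G values were the tightest of the secreted genes, at 2701 ± 248 RPM (SD, n = 4), and all exceeded the highest α7E260A:G value. The ratio was 0.408.

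**Figure D1:**
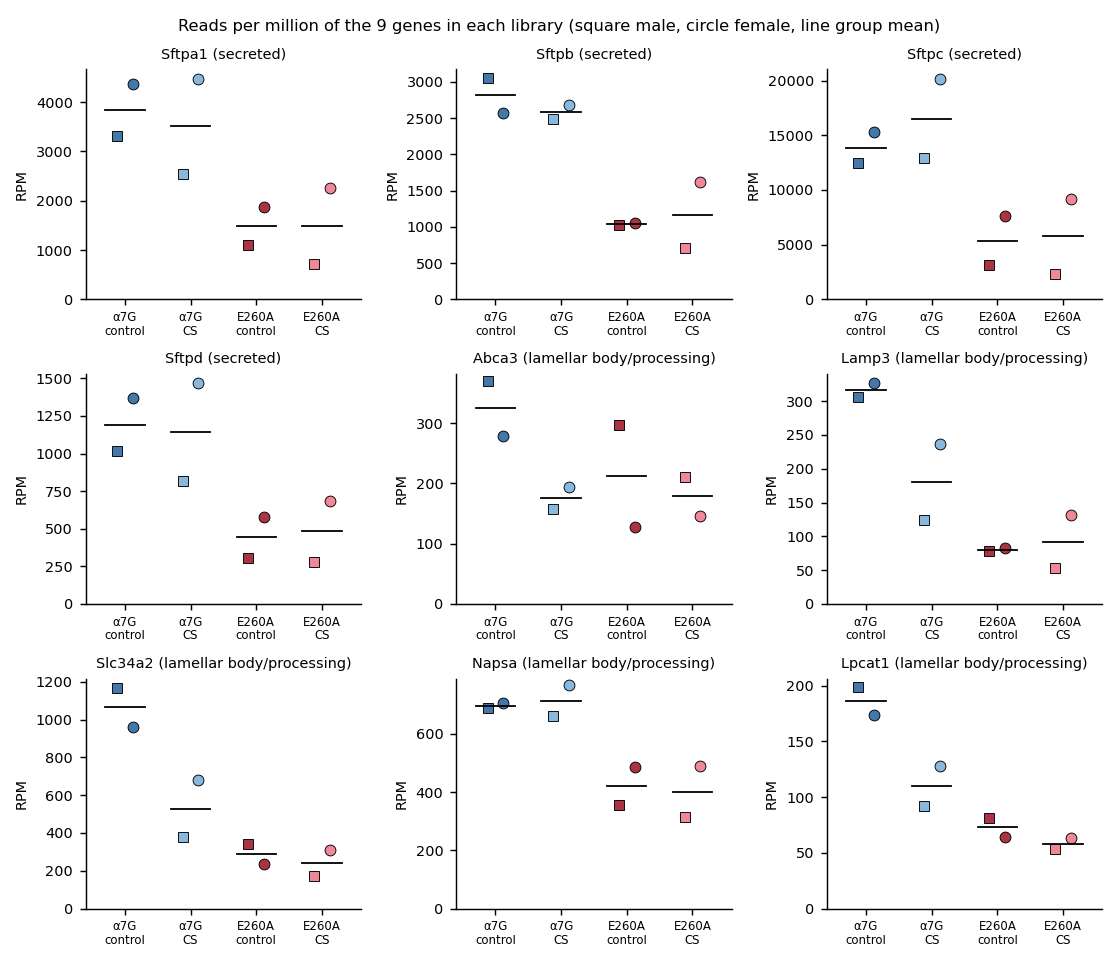
RPM of each of the 9 genes (vertical axes from 0) in the 4 groups, with squares for male and circles for female libraries and a line at the group mean of 2 libraries. The α7E260A:G points sit below all α7G points in 7 panels, and Abca3 and Lamp3 are the panels in which the genotypes overlap.

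Among the lamellar body genes the separation was the same for Slc34a2, Napsa and Lpcat1. Slc34a2, the sodium-dependent phosphate transporter of the AT2 apical membrane, had 1168 and 962 RPM in α7G controls, 378 and 681 RPM in α7G CS, 344 and 233 RPM in α7E260A:G controls and 170.4 and 307 RPM in α7E260A:G CS. Its ratio of 0.331 was the lowest of the 9, but the α7G CS male stood close above the α7E260A:G control male. Napsa, the aspartic protease that takes part in processing pro-SP-B, had 688, 705, 660.0 and 767 RPM in the α7G libraries and 356, 487, 313 and 490.4 RPM in the α7E260A:G libraries, in the order control male, control female, CS male and CS female. Its α7G values lay close together (705 ± 45.4 RPM, SD, n = 4), with a ratio of 0.584. Lpcat1, the acyltransferase that makes dipalmitoyl phosphatidylcholine, had 199, 173, 92.3 and 128 RPM in α7G and 81.5, 64.4, 53.5 and 62.8 RPM in α7E260A:G in that order. Its ratio was 0.442, and the lowest α7G library, the CS male, stood close above the highest α7E260A:G library.

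The remaining lamellar body genes overlapped between the genotypes. Lamp3, a membrane glycoprotein of the lamellar body, had 307, 327, 125 and 237 RPM in α7G and 78.1, 82.8, 53.1 and 131 RPM in α7E260A:G in the same order. Its ratio was 0.347, and only the α7E260A:G CS female exceeded an α7G library, the CS male. Abca3, the transporter that loads phospholipid into the lamellar body, had 369.6, 279, 158 and 193 RPM in α7G and 297, 128, 211 and 146 RPM in α7E260A:G. Its ratio was 0.783, with means of 250.1 ± 94.6 and 196 ± 76.6 RPM (SD, n = 4 each), a difference smaller than the spread.

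By the two-sided exact permutation test over the 70 arrangements of 4 against 4 libraries, 7 of the 9 genes had the smallest p the design allows, 0.0286 (n = 4 each). The exact p was 0.0571 for Lamp3 and 0.429 for Abca3 (n = 4 each). All α7E260A:G libraries lay below all α7G libraries for 7 of the 9 genes and for 5.15% of the 7190 transcripts tested. In pairs matched for sex and exposure, 8 of the 9 genes were lower in α7E260A:G in 4 of 4 pairs, against 15% of all transcripts. The exception was Abca3 in the male CS pair, with a ratio of 1.34. The lowest pair ratio was 0.180, for Sftpc in the male CS pair.

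The test across all transcripts called none of the 9. The quasi-likelihood test of edgeR, with adjustment after Benjamini and Hochberg, gave adjusted p of 0.105 for Lpcat1, 0.112 for Slc34a2, 0.176 for Sftpb, 0.177 for Lamp3, 0.314 for Sftpd, 0.367 for Napsa, 0.382 for Sftpa1, 0.432 for Sftpc and 0.766 for Abca3. It called 6 of the 7190 transcripts (0.0834%). At an unadjusted p under 0.05 there were 7 of the 9 genes and 854 of all transcripts. The fitted log2 fold-change was −1.31 ± 0.565 (SE) for Sftpc, −1.45 ± 0.300 for Slc34a2, −1.07 ± 0.182 for Lpcat1 and −0.27 ± 0.225 for Abca3. The median was −1.21 over the secreted genes, −1.07 over the lamellar body genes and 0.04 over all transcripts. DESeq2 called 4 of the 9, Sftpb, Lamp3, Slc34a2 and Lpcat1, and 422 of all transcripts.

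The libraries differed in how their counts depended on the length of the coding sequence. The log2 deviation of a library from the mean of the 8 changed by 0.41 per doubling of length in the α7E260A:G control male and by −0.24 in the α7E260A:G control female, and the other 6 libraries lay between −0.24 and 0.23. The genes span 579 to 5112 bases, so this bears on Sftpc and Abca3 at the ends. With each library's length dependence taken up as an offset, edgeR called 5 of the 9 genes, Sftpb (log2 fold-change −1.21, adjusted p 0.024), Sftpc (−1.44, 0.045), Lamp3 (−1.39, 0.030), Slc34a2 (−1.45, 0.021) and Lpcat1 (−1.07, 0.008), against 6.62% of all transcripts. The adjusted p of the other 4 were 0.052 for Abca3, 0.056 for Sftpa1, 0.071 for Sftpd and 0.078 for Napsa. With sex also in the model all 9 were called, against 9.36% of all transcripts.

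Abca3 was the gene whose value depended most on this step. Its log2 fold-change was −0.27 ± 0.225 (SE) without and −0.52 ± 0.132 with the offset. With the length dependence removed from the RPM, it had 287, 266, 219 and 258 RPM in α7G and 173, 156, 168 and 186 RPM in α7E260A:G (control male, control female, CS male, CS female). These values no longer overlapped, with a ratio of 0.664 and an exact permutation p of 0.0286 (n = 4 each). The share of all transcripts without overlap is given above only for uncorrected RPM (5.15%), and not for this scale. Lamp3 still overlapped on this scale.

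**Figure D2:**
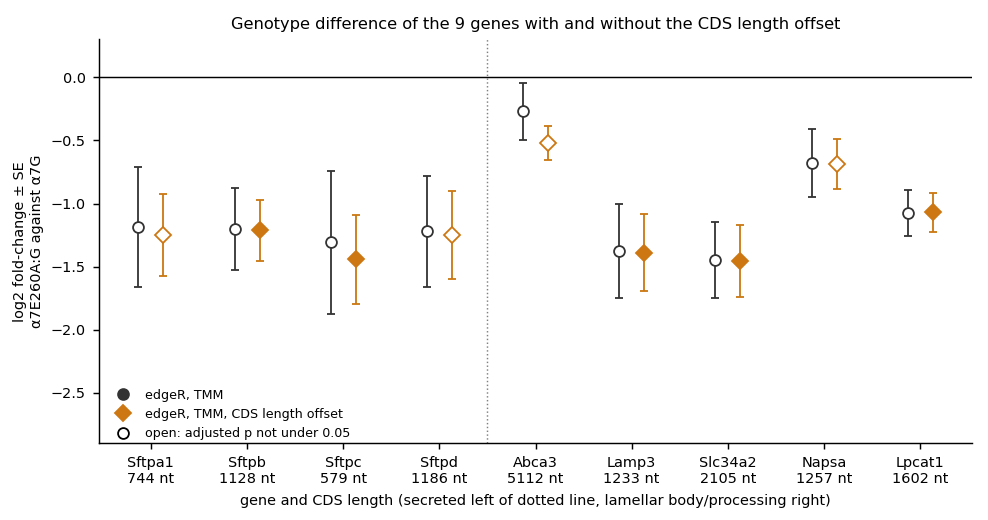
Fitted log2 fold-change of α7E260A:G against α7G with its SE for each gene, from edgeR with TMM scaling (circles) and with the CDS length offset added (diamonds), where filled symbols have an adjusted p under 0.05. All 18 estimates lie below 0, and the 5 filled symbols are all from the fit with the offset.

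Transcripts of macrophages, B cells, endothelium and other epithelial cells also differed between the genotypes, and their part in the result was not tested. The summed level of 16 alveolar macrophage transcripts was 14682 to 23917 RPM in α7G and 30696 to 53214 RPM in α7E260A:G. All 16 had a log2 fold-change above 0, and 13 were called as higher with the offset, led in level by Chi3l3 with 9938 ± 2878 and 25387 ± 6971 RPM (SD, n = 4 each). Without the offset only Msr1, a scavenger receptor, was called (12.8 and 77.5 RPM, edgeR adjusted p 0.014). Ptprc, which encodes CD45, the antigen used for depletion, averaged 1224 ± 552 and 1267 ± 460 RPM (SD, n = 4 each), and the sum of 4 pan-leukocyte transcripts overlapped between the genotypes (4106 to 5327 and 4017 to 4698 RPM). The 4 B cell transcripts, by contrast, all had every α7E260A:G library below every α7G library, with sums of 1072 to 1860 and 579 to 757 RPM and a median log2 fold-change of −1.004, and were called as lower only with the offset. The endothelial list had 5 of 5 tested transcripts below 0 (median −0.50), and Pecam1, which encodes CD31, was called with the offset (209 ± 9.98 and 142 ± 46.1 RPM, SD, n = 4 each). The lists for T and NK cells, neutrophils, mesenchyme, red cells and ciliated cells had no called transcript with or without the offset. No transcript of these lists was at 0 in all libraries.

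The sum of 5 general epithelial transcripts (Krt8, Krt18, Krt19, Epcam and Cdh1) was 1213 to 1886 RPM in α7G and 1002 to 1521 RPM in α7E260A:G. Their mean log2 RPM differed by −0.64 (α7E260A:G minus α7G), and the 5 were uneven. Epcam had the lowest ratio, 0.489, and was the only 1 of the 5 without overlap (175 ± 34.3 and 85.5 ± 6.19 RPM, SD, n = 4 each), followed by Krt18 at 0.547, Krt8 at 0.600, Cdh1 at 0.770 and Krt19 at 0.946. Relative to that mean, 8 of the 9 surfactant genes had a negative difference, from −0.16 (Napsa) to −1.01 (Sftpc) on the log2 scale, and that of Abca3 was 0.29. On this relative scale the genotypes were separate only for Sftpb (−0.71, exact permutation p 0.0286, n = 4 each). The share of all transcripts separate on this scale is not given here. The epithelial mean itself varied within a genotype, with an SD of 0.22 in α7G and 0.27 in α7E260A:G (log2, n = 4 each). That variation enters every relative value. The relative difference of Sftpc had an exact permutation p of 0.171 (n = 4 each) and that of Napsa 0.600. The club cell list, with the secretoglobin Scgb1a1 at its head (46758 ± 8537 and 26882 ± 13857 RPM, SD, n = 4 each), had 3 of 8 transcripts called as lower with the offset (Scgb3a2, Cyp2f2 and Bpifa1), and the AT1 list had 2 of 6 (Aqp5 and Pdpn).

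Other genes of AT2 were read from fixed lists. Of 14 other AT2 markers 12 were tested, of which 10 had a log2 fold-change below 0 and none was called without the offset (median −1.14). With the offset 6 were called as lower and 1 as higher. The lower ones were Chi3l1, a chitinase-like lectin (593 and 195 RPM), Muc1, a membrane mucin (281 and 113 RPM), Lgi3, Cldn18, a tight junction claudin, Egfl6, and Il33, an alarmin cytokine. The higher one, Fabp5, a fatty acid binding protein that macrophages also express, had 38.0 ± 5.79 and 183 ± 80.6 RPM (SD, n = 4 each). Ctsh, a cathepsin that takes part in processing pro-SP-B and pro-SP-C, had 568 ± 27.4 and 542 ± 104 RPM. The AT2 transcription factors were mostly below the count minimum: 4 of 11 were tested and none was called, and Nkx2-1 averaged 23.8 ± 5.03 and 13.1 ± 5.12 RPM (SD, n = 4 each).

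The machinery that makes and moves surfactant lipid was read next. Of 15 tested genes of surfactant lipid synthesis, none was called without the offset and 2 as lower with it, Fasn, the fatty acid synthase, and Scd1, a stearoyl-CoA desaturase (308 ± 162 and 123 ± 16.4 RPM, SD, n = 4 each). The median log2 fold-change of this list was −0.08. Of 20 tested genes of lamellar body biogenesis, trafficking and secretion, none was called without the offset. With it Gpr116, an AT2 receptor that restrains surfactant secretion, was called as lower (252 and 148 RPM) and Atp10a, a phospholipid flippase, as higher (80.7 and 144 RPM), and the median without the offset was 0.15. Of 8 tested genes of surfactant uptake and clearance none was called without the offset and 6 as higher with it, among them Csf2rb, the shared GM-CSF receptor chain (182 and 363 RPM), Pparg (129 and 204 RPM) and the lysosomal phospholipase Pla2g15 (98.4 and 190 RPM). Csf2rb and Pparg are known for their role in alveolar macrophages, and Mrc1, also called here, stands in the macrophage list too.

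Secreted and lamellar body genes were then set against each other. The 4 secreted genes summed to 22747 ± 4521 RPM in α7G and 8610 ± 4596 RPM in α7E260A:G (SD, n = 4 each), a ratio of 0.379. The 5 lamellar body genes summed to 2149 ± 574 and 1023 ± 164 RPM, a ratio of 0.476. Neither sum overlapped between the genotypes.

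The mean log2 RPM of the secreted genes exceeded that of the lamellar body genes by 2.91, 3.28, 3.74 and 3.79 in the α7G libraries (control male, control female, CS male, CS female) and by 2.44, 3.51, 2.58 and 3.62 in the α7E260A:G libraries. The genotype means were 3.43 ± 0.42 and 3.04 ± 0.61 (SD, n = 4 each), which overlapped. In α7G both CS libraries were above both controls, and in α7E260A:G the libraries were split by sex, with both females above both males. The secreted genes have 579 to 1186 coding bases and the lamellar body genes 1233 to 5112, so this difference carries the length dependence too. The length slopes were 0.23 and 0.06 in α7G controls and −0.24 and −0.20 in α7G CS (male, female). In α7E260A:G they were 0.41 and 0.19 in males and −0.24 and −0.20 in females (control, CS). The ratio of Sftpc to Abca3, the shortest and the longest of the genes by coding sequence, ran from 33.7 to 104 in α7G and from 10.4 to 62.8 in α7E260A:G in RPM, and this ratio carries the length dependence described above. Sftpc made up 60.8% ± 4.7 of the counts of the 9 genes in α7G and 54.8% ± 8.7 in α7E260A:G (SD, n = 4 each).

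**Figure D3:**
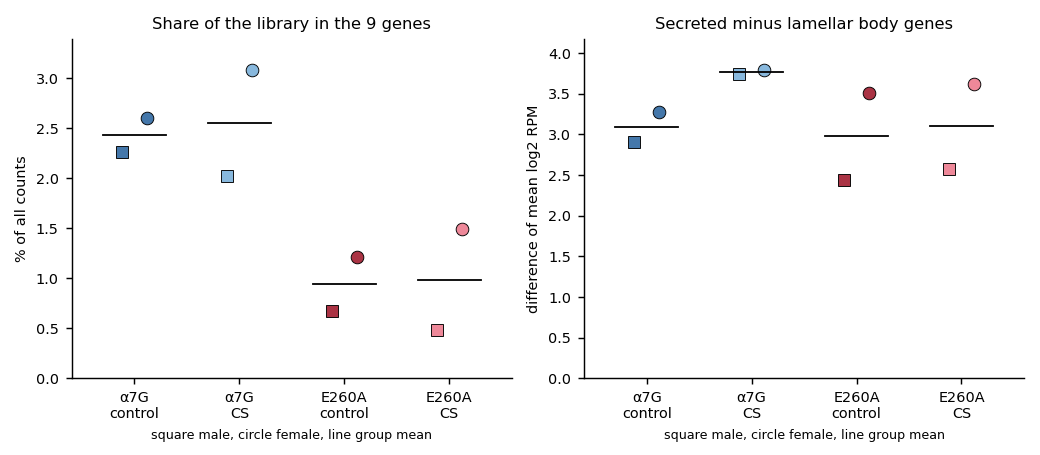
Left, the share of all counts in the 9 genes in percent; right, the mean log2 RPM of the 4 secreted genes minus that of the 5 lamellar body genes, for each library (squares male, circles female, lines the group means). The share separates the genotypes (0.481 to 1.49% against 2.02 to 3.08%), and the difference between the gene classes does not.

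The effect of CS was asked within each genotype and over both. For the secreted genes the ratio of CS to control within a sex lay on both sides of 1. In α7G it was 1.04 in males and 1.32 in females for Sftpc, 0.770 and 1.03 for Sftpa1, 0.816 and 1.04 for Sftpb, and 0.804 and 1.07 for Sftpd. In α7E260A:G all 4 were below 1 in males (0.643 to 0.908) and above 1 in females (1.19 to 1.54). By these RPM, Sftpc in α7G was the only case in which both sexes moved in the same direction. With the length dependence removed this changed. Sftpa1 then fell in both α7G pairs (4041 to 2167 RPM in males, 4582 to 3921 in females), as did Sftpb (3323 to 2323 and 2619 to 2530). Sftpc fell in males (16233 to 10354) and rose in females (16366 to 16933), and Sftpd did likewise (1090 to 769 and 1389 to 1398).

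For the lamellar body genes, Abca3, Lamp3, Slc34a2 and Lpcat1 were lower after CS in both α7G pairs. The share of all transcripts lower in both pairs is not given here. With library size scaling, the fitted log2 fold-change of CS in α7G was below 0 for 60.9% of all transcripts (median −0.12). The ratios in males and females were 0.324 and 0.707 for Slc34a2, 0.406 and 0.726 for Lamp3, 0.428 and 0.692 for Abca3, and 0.464 and 0.739 for Lpcat1. Napsa had 0.960 and 1.09. In α7E260A:G all 5 ratios were below 1 in males (0.496 for Slc34a2 to 0.879 for Napsa), and in females they ran from 0.975 for Lpcat1 to 1.59 for Lamp3. The α7E260A:G control libraries of Slc34a2, Lamp3, Lpcat1 and Napsa were below both α7G CS libraries, as were those of all the secreted genes. For Abca3 these libraries overlapped. This order was therefore not particular to the genes that were lower after CS in both α7G pairs. How many of all transcripts had this order is not given here.

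**Figure D4:**
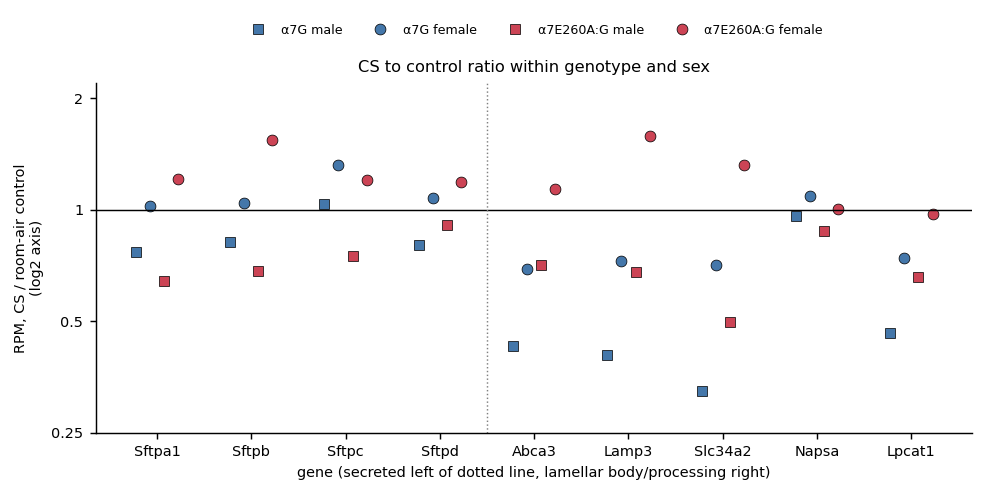
Ratio of RPM in the CS library to that in the room-air control library of the same genotype and sex (log2 axis, line at 1), with squares for males and circles for females, blue for α7G and red for α7E260A:G. Abca3, Lamp3, Slc34a2 and Lpcat1 have both α7G points below 1, between 0.324 and 0.739, and the secreted genes lie between 0.643 and 1.54.

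None of these differences was called in the fit of all 8 libraries. In α7G, the same edgeR test gave log2 fold-changes of −0.88 ± 0.418 (SE) for Slc34a2 (adjusted p 0.589), −0.76 ± 0.320 for Abca3 (0.589), −0.68 ± 0.518 for Lamp3 (0.598) and −0.63 ± 0.254 for Lpcat1 (0.589), and called 0% of the 7190 transcripts (480 at an unadjusted p under 0.05, 2 of them members, and 25 transcripts and no member by DESeq2). The median was 0.03 over the secreted and −0.68 over the lamellar body genes. With the CDS length offset the value of Abca3 became −0.09, that of Slc34a2 −0.71, that of Lamp3 −0.80 and that of Lpcat1 −0.61, none of them called. For the secreted genes the offset gave −0.38 for Sftpa1, −0.17 for Sftpb, −0.13 for Sftpc and −0.07 for Sftpd, also not called. A fit of the 4 α7G libraries alone, without the offset, called Abca3 (edgeR adjusted p 0.035) among 1150 of the 7190 transcripts. Over all settings tried, the log2 fold-change of CS in α7G stayed below 0 for Abca3, Lamp3, Slc34a2 and Lpcat1.

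In α7E260A:G the log2 fold-changes of CS ran from −0.39 for Lpcat1 to 0.15 for Lamp3, and 0 of the 9 genes and 0% of all transcripts were called by edgeR (122 at an unadjusted p under 0.05, no member among them, and 11 transcripts by DESeq2). Over both genotypes they ran from −0.59 for Slc34a2 to 0.18 for Sftpc, again with 0 of 9 genes and 0% of all transcripts called (545 at an unadjusted p under 0.05, 1 of them a member, and 39 transcripts by DESeq2). For the secreted genes the sign of the CS values changed with the scaling, the length offset or the library left out. The CS and control libraries, 4 each, overlapped for all 9 genes, while 2.07% of all transcripts did not overlap, and the exact permutation p lay between 0.143 (Abca3) and 1 (n = 4 each).

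Whether CS acted unlike in α7G and α7E260A:G was tested by an interaction term. Its log2 value ran from −0.38 ± 1.11 (SE) for Sftpc to 0.83 ± 0.733 for Lamp3, and edgeR called 0 of the 9 genes and 0% of all transcripts (102 at an unadjusted p under 0.05, no member among them, and 3 transcripts by DESeq2). With standard errors of 0.360 (Lpcat1) to 1.11 (Sftpc) on the log2 scale, a difference between the responses of the size of the CS values themselves was not detectable.

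Across the 8 libraries the TMM-scaled levels of the genes, without the length offset, varied together apart from Abca3. Abca3 has the longest coding sequence of the 9, and no r with the length dependence removed is given here. The Pearson r of a gene's log2 TMM-scaled level with the mean of the other 8 genes was 0.98 for Lamp3, 0.94 for Sftpb, Slc34a2 and Sftpa1, 0.93 for Lpcat1, 0.92 for Sftpd, 0.88 for Sftpc and Napsa, and 0.23 for Abca3. These r are a description, since the libraries share genotype and sex and the genotype difference alone separates them. The transcripts outside the 9 that were most alike to their mean were Egfl6 (r = 0.98), Chi3l1 (0.97), Sult1a1 (0.97) and Chad (0.97). These 4 had lower mean RPM in α7E260A:G, among them Sult1a1, a sulfotransferase, with 38.4 and 20.6 RPM, and Egfl6 and Chi3l1 are also in the list of AT2 markers.

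The total count per library was 8020726 to 10944100. At that depth 3 counts correspond to 0.27 to 0.37 RPM, so every value given here is far above the counting limit, and the spread between libraries sets the precision.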

How the data were processed

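RNA-Seq counts of 8 libraries were analysed, 1 male and 1 female in each of 4 groups, taken from the genotype, protocol and sex given for each sample. The authors aligned reads with STAR to mm9, counted reads on coding sequence with htseq-count and GENCODE M1, and deposited raw counts without normalization. All 22756 genes matched that annotation by identifier and symbol, which gave positions and CDS lengths. RPM were computed from each library's total count, and RPKM from RPM and CDS length.

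Following the study, transcripts with a mean count of at least 200 were kept, and immunoglobulin, histocompatibility, Gm and ribosome subunit genes were left out by name. This left 7190 transcripts, all 9 members among them. They were tested with edgeR 4.0.16 (R 4.3.3, limma 3.58.1; glmQLFit and glmQLFTest with TMM), 4 groups in the model and a Benjamini-Hochberg threshold of 0.05, after the scripts were tested on simulated data. Single values were compared by two-sided exact permutation tests over 70 arrangements (Python 3.11.15, numpy 2.4.6, pandas 2.3.3, scipy 1.17.1, matplotlib 3.10.9). The CDS length offset was fitted per library by lowess (span 0.667), with log2 deviation from the mean library against log2 CDS length. As alternatives the tests were rerun by DESeq2 1.42.0, with library size scaling, with filterByExpr or no filter, with the offset, with sex as a block, with offset and block, on a single genotype's libraries for CS, and without each library in turn.

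The 9 members, the gene lists and the rule for named genes were chosen with earlier results of these data known. The rule took all members, up to 4 examples of each list and any called, and the 5 other transcripts most alike to the members' mean, of which 1 is not reported here. Whether a library is 1 animal or a pool is not stated, so p-values measure the spread between libraries. Within a group that spread is between 1 male and 1 female library, so sex and replication cannot be told apart. The permutation tests did not keep sex or exposure matched. Reads were not realigned.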

Additional observations from a re-analysis of the deposited data

How the results depend on the processing

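All 144 genotype log2 fold-changes (9 genes, 16 settings) were below 0. The settings refit the same 8 libraries or a part of them, so these values are not independent. The number of genes called for genotype was 4 by DESeq2, 5 with the CDS length offset and 9 with the replicate block and the offset together. It was 0 to 1 with each library left out, where Lpcat1 was called without the α7E260A:G control male (121 of 7190 transcripts called) or the α7E260A:G control female (275 of 7190), against 1 to 4 transcripts without any other library. The median genotype log2 fold-change ranged from −1.70 (without the α7E260A:G CS female) to −0.93 (without the α7E260A:G CS male).

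For CS the direction rested on single libraries. With each library left out, the median of the 9 genes ranged from −0.56 to 0.18 over both genotypes, from −0.49 to 0.068 in α7G, from −0.82 to 0.58 in α7E260A:G and from −0.78 to 0.54 for the interaction. The lowest values came without the α7E260A:G CS female, or in α7G without the α7G CS female, and the highest without the α7E260A:G CS male, or in α7G without the α7G CS male. Abca3, 1 of the 9 genes, was called for CS in α7G when only those libraries were fitted, as were 1150 of 7190 transcripts. The count of genes with no overlap between CS and control was 0 to 1, with Abca3 alone without the α7E260A:G control female, where 13.5% of all transcripts did not overlap (2.56 to 11.2% without any other library), an alternative added after the data were seen.

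None of the sign changes of single genes that follow involved a called value, and the cause was not tested. Under library size scaling the values on the other side of 0 were Sftpb −0.0013 for CS over both genotypes, Sftpb −0.10 and Sftpd −0.046 for CS in α7G, Sftpc 0.015 for CS in α7E260A:G, Sftpa1 0.037 and Sftpd 0.094 for the interaction. Under the CDS length offset the values on the other side of 0 were Sftpb −0.069, Sftpc −0.088 and Sftpd −0.045 for CS over both genotypes, Sftpb −0.17, Sftpc −0.13 and Sftpd −0.074 for CS in α7G, Sftpd −0.015 and Abca3 0.031 for CS in α7E260A:G, Sftpa1 0.21, Sftpc 0.088 and Sftpd 0.059 for the interaction. Under the replicate block with the offset the values on the other side of 0 were Sftpb −0.11, Sftpc −0.19 and Sftpd −0.11 for CS over both genotypes, Sftpb −0.19, Sftpc −0.22 and Sftpd −0.15 for CS in α7G, Sftpb −0.029, Sftpd −0.066, Abca3 0.026 and Lamp3 −0.041 for CS in α7E260A:G, Sftpa1 0.16, Sftpc 0.055 and Sftpd 0.080 for the interaction. Under the replicate block the values on the other side of 0 were Sftpd −0.011 for CS over both genotypes, Sftpb −0.018 and Sftpd −0.0071 for CS in α7G, Sftpd −0.015 for CS in α7E260A:G. Under filterByExpr the values on the other side of 0 were Napsa 0.014 for CS over both genotypes, Sftpa1 0.0059 for CS in α7G, Sftpc 0.023 for CS in α7E260A:G. Under no filter the values on the other side of 0 were Napsa 0.011 for CS over both genotypes, Sftpc 0.026 for CS in α7E260A:G. Under DESeq2 the values on the other side of 0 were Sftpa1 0.00080 for CS in α7G. With each library left out in turn, CS over both genotypes ranged across 0 at −0.67 to 0.30 for Sftpa1, −0.39 to 0.33 for Sftpb, −0.56 to 0.72 for Sftpc, −0.44 to 0.43 for Sftpd, −0.75 to 0.018 for Lamp3 and −0.26 to 0.23 for Napsa. With each library left out in turn, CS in α7G ranged across 0 at −0.49 to 0.35 for Sftpa1, −0.060 to 0.094 for Sftpb and −0.44 to 0.43 for Sftpd. With each library left out in turn, CS in α7E260A:G ranged across 0 at −1.33 to 0.60 for Sftpa1, −0.78 to 0.66 for Sftpb, −1.50 to 1.06 for Sftpc, −0.94 to 0.81 for Sftpd, −0.65 to 0.22 for Abca3, −0.82 to 0.72 for Lamp3, −0.94 to 0.15 for Slc34a2 and −0.67 to 0.31 for Napsa. With each library left out in turn, the interaction ranged across 0 at −1.32 to 0.61 for Sftpa1, −0.78 to 0.65 for Sftpb, −1.87 to 0.69 for Sftpc, −0.996 to 0.75 for Sftpd, −0.13 to 1.40 for Lamp3, −0.056 to 1.08 for Slc34a2, −0.83 to 0.15 for Napsa and −0.0079 to 0.51 for Lpcat1.

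Same-sex libraries of different groups deviated together with r of −0.07 to 0.84, so not every pair exceeded 0.1, and the male and female labels do not establish pairing. The replicate block alone called 0 of the 9 genes and 40 transcripts for genotype, against 6 without it, and changed no other call. Each group had 2 libraries, so the spread between libraries and not depth limits what can be shown.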
